A study of Mus musculus with 8 samples.

Results

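The genes described here are 37 mouse genes of the cell division cycle, chosen by name and found among the 52636 genes of the count matrix by matching Ensembl gene IDs without their version to gene symbols. They comprise 12 genes of S phase and its onset, 18 genes of G2 and mitosis, 3 D-type cyclins and 4 inhibitors of cyclin-dependent kinases (CDKs). All 37 passed the filter on low counts and were tested. The libraries were made from polyA RNA of LEPR+ mesenchymal stem cells of the bone marrow of C57BL/6 mice, which are stromal cells that carry the leptin receptor and lie around the sinusoids. In 4 libraries the mice had received LTβR-Ig, a decoy made of the lymphotoxin beta receptor that captures its ligands, and in 4 control libraries they had received HEL-Ig, an IgG1 antibody against hen egg lysozyme, each as weekly intravenous doses of 150 μg over 3 weeks. The cells had been depleted of blood cells with magnets, sorted as living LEPR+ cells lacking the blood marker CD45, the red cell marker Ter119 and the endothelial markers CD31 and CD144, and sorted a second time. The labels give neither the age nor the sex of the mice, and the series' text speaks of 4 pairs without saying what a pair shares, so a p-value here covers only library-to-library spread, which may be technical. Total counts lay between 52378101 and 64403177 per library.

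A cell enters the division cycle when D-type cyclins bind CDK4 or CDK6 and these kinases phosphorylate the retinoblastoma protein, which frees E2F factors to switch on genes for DNA replication. The genes of mitosis are switched on later, largely through a promoter element called the cell cycle genes homology region (CHR), at which the DREAM complex keeps them off in resting cells and MYBL2 and FOXM1 help to turn them on. CDK inhibitors block these kinases, and p21, p27 and p57 are known for holding many kinds of stem cell in a resting state. Adult LEPR+ stromal cells of the marrow are known as cells that seldom divide.

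The S phase and mitotic members differed in promoter sequence, which the choice of members did not use. Promoter windows of 300 bases (250 before and 50 after the annotated start, RefSeq, GRCm38.p6) were matched by symbol for 29 of the 37 members and gave 33 windows. The CHR was searched as TTTGAA or TTCGAA on both strands. It was found in 12 of 15 windows of mitotic genes (80.0%) and in 2 of 11 windows of S phase genes (18.2%), against 19.2% of all 32851 RefSeq promoter windows. Within the 100 bases around the start, 11 of 15 mitotic windows (73.3%) held a CHR, against 5.31% of all windows. An E2F motif was searched as TTTCCCGC, TTTGGCGC, TTTCGCGC or TTTGCCGC on both strands, where matches may overlap. It was found in 4 of 11 S phase windows (36.4%) and in 1 of 15 mitotic windows (6.67%), against 2.26% of all windows. CCAAT, the NF-Y motif, on either strand stood in 93.3% of mitotic windows, 72.7% of S phase windows and 37.4% of all windows. Of the CDK inhibitors, Cdkn1a, Cdkn1b and Cdkn2c were matched, with 5 windows, and of the D-type cyclins only Ccnd3, with 2 windows; none of these held a CHR or an E2F motif in these letters. A match describes the letters only and is not evidence of a bound site. The 4 S phase windows with an E2F motif were all of Mcm genes, namely Mcm3, Mcm5, Mcm6 and 1 window of Mcm7. The windows of 4 mitotic genes and 2 S phase genes are shown as examples that hold these elements, with CHR and E2F matches in capitals. Where E2F matches overlap, the capitals cover their union.
Mki67 (chr7:135716330-135716629, minus strand): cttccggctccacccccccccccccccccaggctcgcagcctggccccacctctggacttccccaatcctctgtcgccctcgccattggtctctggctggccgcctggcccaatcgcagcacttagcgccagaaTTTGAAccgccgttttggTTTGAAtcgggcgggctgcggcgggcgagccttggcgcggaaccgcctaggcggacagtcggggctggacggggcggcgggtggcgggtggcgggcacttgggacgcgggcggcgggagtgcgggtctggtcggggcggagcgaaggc
Cdk1 (chr10:69352863-69353162, minus strand): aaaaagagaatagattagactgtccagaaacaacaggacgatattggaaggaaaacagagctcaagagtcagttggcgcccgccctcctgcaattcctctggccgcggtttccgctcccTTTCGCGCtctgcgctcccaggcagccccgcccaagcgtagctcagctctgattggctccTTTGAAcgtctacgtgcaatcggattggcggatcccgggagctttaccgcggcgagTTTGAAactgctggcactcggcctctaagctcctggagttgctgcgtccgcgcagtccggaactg
Ccnb2 (chr9:70421505-70421804, minus strand): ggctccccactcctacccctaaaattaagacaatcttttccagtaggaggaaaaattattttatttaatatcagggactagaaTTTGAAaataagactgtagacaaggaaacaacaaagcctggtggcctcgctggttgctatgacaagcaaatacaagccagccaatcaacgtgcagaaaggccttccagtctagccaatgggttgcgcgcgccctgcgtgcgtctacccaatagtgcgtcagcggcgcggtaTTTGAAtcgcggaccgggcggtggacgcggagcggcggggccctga
Ube2c (chr2:164769679-164769978, plus strand): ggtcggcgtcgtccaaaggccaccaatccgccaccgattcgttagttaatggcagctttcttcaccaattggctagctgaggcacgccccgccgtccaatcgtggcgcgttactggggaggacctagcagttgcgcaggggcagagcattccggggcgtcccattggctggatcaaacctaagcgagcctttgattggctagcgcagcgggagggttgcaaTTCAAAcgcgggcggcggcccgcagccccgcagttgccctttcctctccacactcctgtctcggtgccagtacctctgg
Mcm5 (chr8:75109259-75109558, plus strand): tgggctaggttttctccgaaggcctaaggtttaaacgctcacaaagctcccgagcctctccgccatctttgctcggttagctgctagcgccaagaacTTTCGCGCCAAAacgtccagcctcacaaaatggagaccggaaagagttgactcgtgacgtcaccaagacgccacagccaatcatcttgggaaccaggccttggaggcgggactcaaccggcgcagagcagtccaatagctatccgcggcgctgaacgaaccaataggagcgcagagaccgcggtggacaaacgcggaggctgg
Mcm6 (chr1:128359656-128359955, minus strand): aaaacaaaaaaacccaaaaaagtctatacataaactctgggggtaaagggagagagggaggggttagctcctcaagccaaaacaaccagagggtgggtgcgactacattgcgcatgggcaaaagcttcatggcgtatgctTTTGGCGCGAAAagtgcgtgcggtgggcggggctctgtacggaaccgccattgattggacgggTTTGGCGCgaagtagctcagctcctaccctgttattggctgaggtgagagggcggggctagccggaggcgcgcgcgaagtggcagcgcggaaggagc
In Ccnb2 a CHR lies 5 bases after the start, in Cdk1 matches lie 15 and 71 bases before it, and in Ube2c the match reads on the opposite strand 29 bases before it. Cdk1 also holds an E2F match 131 bases before the start. The levels of Mki67, Cdk1 and Ube2c by library are given below.

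The control libraries held replication and mitotic transcripts at high levels. Which of the sorted cells this RNA came from was not tested. On the scale of CPM (counts scaled to a common library size) per kilobase of exons, the median member stood at the 85.1 percentile of all 16045 tested genes in control libraries. S phase genes stood highest, with a median at the 89.2 percentile, and mitotic genes had theirs at the 85.2 percentile. The 4 CDK inhibitors had a median at the 75.7 percentile and the 3 D-type cyclins at the 57.5 percentile. Members ranged from Ccnd1 (cyclin D1) at the 20.4 percentile to Rrm2, a subunit of the enzyme that makes deoxyribonucleotides, at the 98.2 percentile. Rrm2 averaged 177 CPM per kilobase in LTβR-Ig libraries and 197 in control libraries. Pcna, the sliding clamp of DNA polymerase, followed with 79.7 CPM per kilobase in LTβR-Ig and 86.9 in control libraries, and Ccnb2, a B-type mitotic cyclin, with 66.6 in LTβR-Ig and 77.3 in control libraries. Ube2c, which loads ubiquitin for the anaphase-promoting complex, averaged 64.0 in LTβR-Ig libraries and 65.5 CPM per kilobase in control libraries, a spacing from Ccnb2 that is smaller than the spread over libraries. Cyclin D1 averaged 0.686 CPM per kilobase in LTβR-Ig and 0.680 in control libraries.

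**Figure D1:**
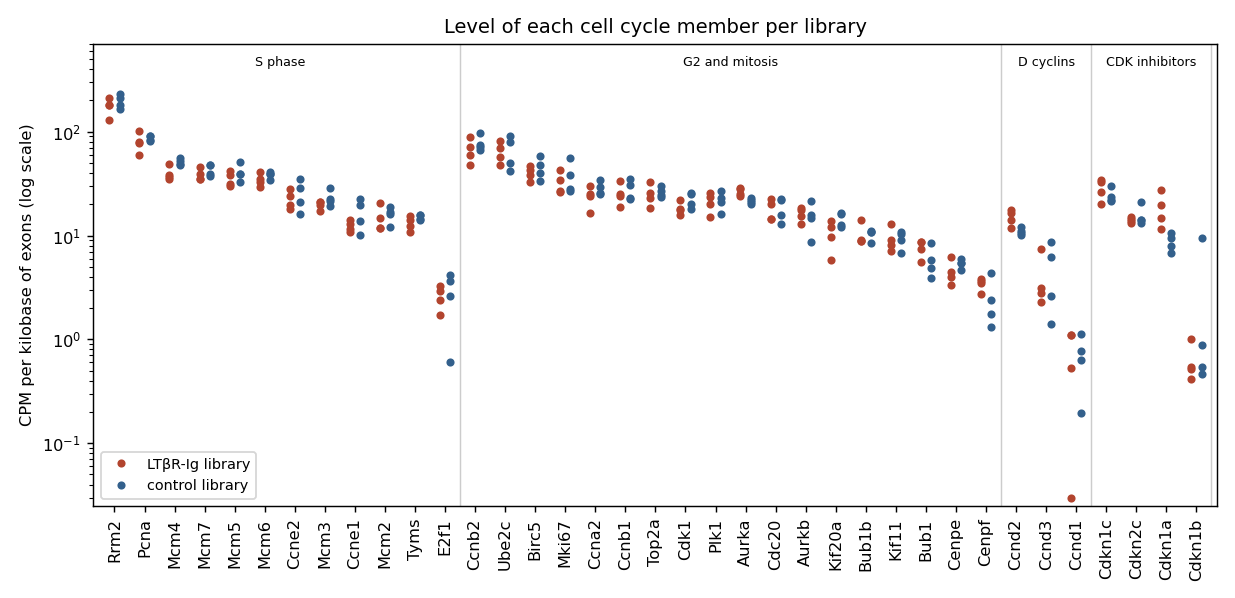
Level of each of the 37 members in CPM per kilobase of exons on a log axis, with each point a library (red, left, LTβR-Ig; blue, right, control) and genes ordered within each class by their control mean; the Ccnd1 count of 0 in LTβR-Ig replicate 2 is drawn at the bottom of the axis. The groups overlap for nearly all genes, and Rrm2, with 177 in LTβR-Ig and 197 in control libraries, stands above all other members.

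The libraries also held RNA of cell types that the sort was meant to exclude. Lepr ranged from 3159 to 4498 CPM in LTβR-Ig libraries and from 4270 to 4372 CPM in control libraries, and all 12 stromal markers were detected in all 8 libraries, with a median at the 99.0 percentile. All 12 erythroid markers were detected in every library too. Their sum was 16292, 22555, 37329 and 30678 CPM in LTβR-Ig replicates 1 to 4, against 18614, 16224, 48688 and 32928 CPM in control replicates 1 to 4. The erythroid transcription factor Gata1, which stromal cells are not known to make, had 109 to 156 CPM in LTβR-Ig libraries and 129 to 156 CPM in control libraries. All 14 markers of neutrophils and their precursors were detected in every library, with sums of 4854 to 9705 CPM in LTβR-Ig and 4274 to 10053 CPM in control libraries. Only 2 of 10 T and NK cell markers were detected in all 8 libraries, with sums of 35.7 to 119 CPM in LTβR-Ig and 42.7 to 108 CPM in control libraries, and Cd3e, Cd3d, Cd3g and Cd8a were among those at 0 in some library. Erythroid and granulocyte precursors divide rapidly in marrow, and the share of cell cycle RNA that came from them was not tested. In bulk RNA, fewer cells of a type and less RNA per cell cannot be told apart.

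No member passed the test between LTβR-Ig and control libraries after adjustment over all genes. With edgeR's quasi-likelihood test and Benjamini-Hochberg adjustment over 16045 genes, 0 of the 37 members had an adjusted p under 0.05 and the smallest was 0.354, while 6 genes in all were called (0.0374%), each lower in LTβR-Ig libraries. At an unadjusted p under 0.05 there were 4 of 37 members (10.8%), against 6.32% of all tested genes (3.39% higher and 2.93% lower). These were Cdkn1a, Ccnd2 and Aurka, with higher means in LTβR-Ig libraries, and Mcm4, with a lower mean. In 2 members, Cdkn1a and Aurka, all 4 LTβR-Ig libraries lay above all 4 control libraries, and in 0 members did they lie below; of all genes 4.89% did not overlap, 2.36% higher and 2.53% lower. DESeq2 called 199 of 15931 genes (1.25%), of which Cdkn1a was the only member, and limma-voom called 14 genes (0.0873%) and no member. The log2 fold change (LTβR-Ig over control) was negative for 28 members and positive for 9, with a median of −0.14, against a median of 0.00 over all tested genes.

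**Figure D2:**
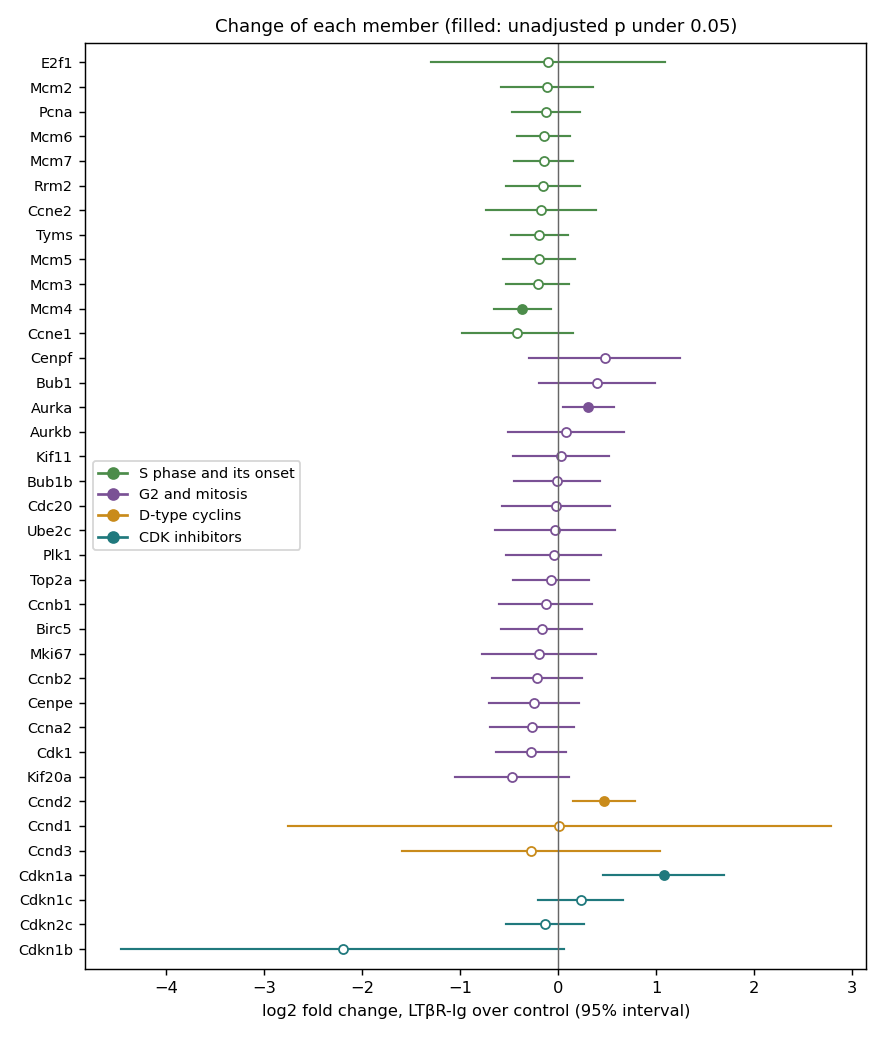
The log2 fold change of each member (LTβR-Ig over control) with its 95% interval from the edgeR fit, coloured by class; filled points have an unadjusted p under 0.05. The points of all 12 S phase genes lie left of 0, and those of mitotic genes lie on both sides. The Cdkn1a interval, from 0.46 to 1.70, has the highest lower end of all members.

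Every S phase member had a lower mean in LTβR-Ig than in control libraries, by small amounts that mostly stayed within the spread between libraries. The 12 log2 fold changes ran from −0.42 (Ccne1) to −0.10 (E2f1) with a median of −0.17. Of the 12, 1 had an unadjusted p under 0.05 (8.33%, against 6.32% of all genes). Summed over the 12 genes, the level was 1939, 1445, 1784 and 1531 CPM in LTβR-Ig replicates 1 to 4, against 1982, 1777, 1997 and 1848 CPM in control replicates 1 to 4. LTβR-Ig replicates 2 and 4 lay below all control libraries and replicates 1 and 3 within their range. Because these genes are known to be switched on together, their shared sign is not 12 separate observations.

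Mcm4 (ENSMUSG00000022673.4, chr16:15623897-15637400, minus strand, GRCm38) encodes a subunit of the MCM2-7 helicase that unwinds DNA at the replication fork. It had 177, 125, 137 and 131 CPM in LTβR-Ig libraries, against 201, 177, 188 and 170 CPM in control libraries. LTβR-Ig replicates 2, 3 and 4 lay below every control library, and replicate 1 lay within the control range. The means were 143 ± 23.3 CPM in LTβR-Ig and 184 ± 13.7 CPM in control libraries (SD, n = 4 each), a log2 fold change of −0.37 ± 0.13 (SE) with an edgeR p of 0.0185 and an adjusted p of 0.628. In LTβR-Ig libraries Mcm3 had 79.7, 79.8, 73.9 and 65.3 CPM, against 108, 83.8, 81.6 and 72.8 CPM in control libraries (log2 fold change −0.21, 95% interval −0.54 to 0.11). Mcm2 had 142, 82.1, 102 and 82.5 CPM in LTβR-Ig and 130, 118, 84.0 and 112 CPM in control libraries (−0.12, −0.59 to 0.35). The groups overlapped for both genes. For Mcm5, Mcm6 and Mcm7 the log2 fold changes lay between −0.20 and −0.15, with means of 141, 161 and 172 CPM in LTβR-Ig libraries and of 161, 179 and 190 CPM in control libraries.

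Cyclin E1 (Ccne1), which drives CDK2 at the start of S phase, had 37.6, 28.6, 34.4 and 30.5 CPM in LTβR-Ig libraries, against 52.7, 36.5, 59.3 and 26.9 CPM in control libraries. Control replicate 4 lay below all LTβR-Ig libraries, and control replicates 1 and 3 lay well above them (log2 fold change −0.42, −0.99 to 0.15). Its relative Ccne2 averaged 78.5 ± 15.9 CPM in LTβR-Ig and 88.7 ± 29.0 CPM in control libraries. Tyms, thymidylate synthase, had 85.9, 75.1, 93.0 and 66.4 CPM in LTβR-Ig and 96.2, 87.9, 85.4 and 96.7 CPM in control libraries (−0.19, −0.48 to 0.10). For Pcna the values were 245, 191, 185 and 144 CPM in LTβR-Ig and 219, 196, 220 and 199 CPM in control libraries, with the highest and the lowest of all 8 both in LTβR-Ig (−0.12, −0.47 to 0.22). Rrm2 had 505, 361, 591 and 505 CPM in LTβR-Ig and 499, 460, 639 and 591 CPM in control libraries (−0.16, −0.53 to 0.22). E2f1, a factor that activates the replication genes, had 9.12, 10.2, 7.53 and 5.45 CPM in LTβR-Ig and 1.90, 8.30, 13.0 and 11.5 CPM in control libraries, with the widest interval of the class (−1.30 to 1.09). Exons of Ccne2 overlap those of Ints8 on the other strand over 609 of 3495 bp, and without a known strand setting their reads cannot be told apart.

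Mitotic genes were mixed in direction. Of 18 members 5 had higher and 13 had lower means in LTβR-Ig libraries, and the median log2 fold change was −0.06. Of the 18, 1 had an unadjusted p under 0.05 (5.56%, against 6.32% of all genes). Their sum was 1595, 1426, 2193 and 1705 CPM in LTβR-Ig replicates 1 to 4 and 1589, 1587, 2350 and 1931 CPM in control replicates 1 to 4. In both groups replicate 3 was the highest. Aurka (ENSMUSG00000027496.15, chr2:172356190-172370535, minus strand, GRCm38) encodes Aurora kinase A, which works at centrosomes and on the spindle. It had 63.5, 73.3, 70.9 and 60.4 CPM in LTβR-Ig libraries, against 52.9, 55.3, 58.0 and 50.8 CPM in control libraries. All LTβR-Ig values lay above all control values, with 60.4 and 58.0 CPM the nearest pair. Means were 67.0 ± 6.10 CPM in LTβR-Ig and 54.3 ± 3.11 CPM in control libraries (SD, n = 4 each), a log2 fold change of 0.31 ± 0.11 (SE), with an edgeR p of 0.0261 and an adjusted p of 0.671. Aurkb, the Aurora kinase of the chromosomal passenger complex, overlapped, with 47.3 ± 7.39 CPM in LTβR-Ig and 44.8 ± 15.8 CPM in control libraries.

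Kif20a, a kinesin needed for cytokinesis, had 41.9, 25.2, 59.4 and 52.6 CPM in LTβR-Ig libraries, against 52.8, 55.1, 70.2 and 70.9 CPM in control libraries. LTβR-Ig replicates 1, 2 and 4 lay below all control libraries and replicate 3 among them (log2 fold change −0.47, −1.05 to 0.10). Exons of Kif20a share 1271 of 4338 bp with Cdc23 on the other strand, so its counts are uncertain. Cdk1, the kinase that drives entry into mitosis, had 89.6, 77.2, 110 and 87.6 CPM in LTβR-Ig and 125, 89.5, 127 and 100 CPM in control libraries, overlapping (−0.28, −0.64 to 0.07). The cyclins that pair with it overlapped between groups as well. Ccnb1 had 107, 79.2, 142 and 101 CPM in LTβR-Ig and 94.6, 96.3, 147 and 131 CPM in control libraries (−0.13, −0.60 to 0.35). Ccna2 averaged 97.2 CPM in LTβR-Ig and 117 CPM in control libraries, and Ccnb2 averaged 102 CPM in LTβR-Ig and 118 CPM in control libraries; Ccna2 exons share 510 of 4083 bp with Exosc9 on the other strand. Bub1, a kinase of the spindle checkpoint, had 32.2, 37.7, 38 and 24.4 CPM in LTβR-Ig and 25.5, 17.1, 36.5 and 21.4 CPM in control libraries (0.40, −0.19 to 0.99). Control replicate 3 lay above LTβR-Ig replicates 1 and 4, and control replicate 1 above LTβR-Ig replicate 4. For Bub1 the edgeR p was 0.163 and the adjusted p 0.962. With single libraries left out in turn its log2 fold change ran from 0.25 to 0.64, the latter without control replicate 3. Its unadjusted p was under 0.05 in 1 of 20 alternatives, and its adjusted p in 0.

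The proliferation antigen Mki67, which coats mitotic chromosomes, had 265, 271, 431 and 344 CPM in LTβR-Ig libraries, against 269, 284, 561 and 386 CPM in control libraries. The groups overlapped, and replicates 3 and 4 were higher than replicates 1 and 2 in both (log2 fold change −0.20, −0.78 to 0.39). Top2a, which untangles DNA before chromosomes part, had 234, 166, 294 and 209 CPM in LTβR-Ig and 222, 212, 272 and 244 CPM in control libraries (−0.07, −0.47 to 0.32). Cenpf, a kinetochore protein, averaged 52.5 ± 7.37 CPM in LTβR-Ig and 37.8 ± 20.5 CPM in control libraries (0.47, −0.30 to 1.24). Its edgeR p was 0.198 and the adjusted p 0.991. With single libraries left out in turn its log2 fold change ran from 0.27 to 0.90, the latter without control replicate 3, at 66.9 CPM. Its unadjusted p was under 0.05 in 5 of 20 alternatives, and its adjusted p in 0. For Plk1, Cdc20, Bub1b, Kif11, Ube2c, Birc5 and Cenpe the log2 fold changes lay between −0.25 and 0.02, with groups that overlapped. These encode a mitotic kinase, an activator of the anaphase-promoting complex, a spindle checkpoint kinase, a spindle motor, a ubiquitin-conjugating enzyme, survivin and a kinetochore motor. Of these, Ube2c shares 592 of 2600 exonic bp with Tnnc2 on the other strand.

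**Figure D3:**
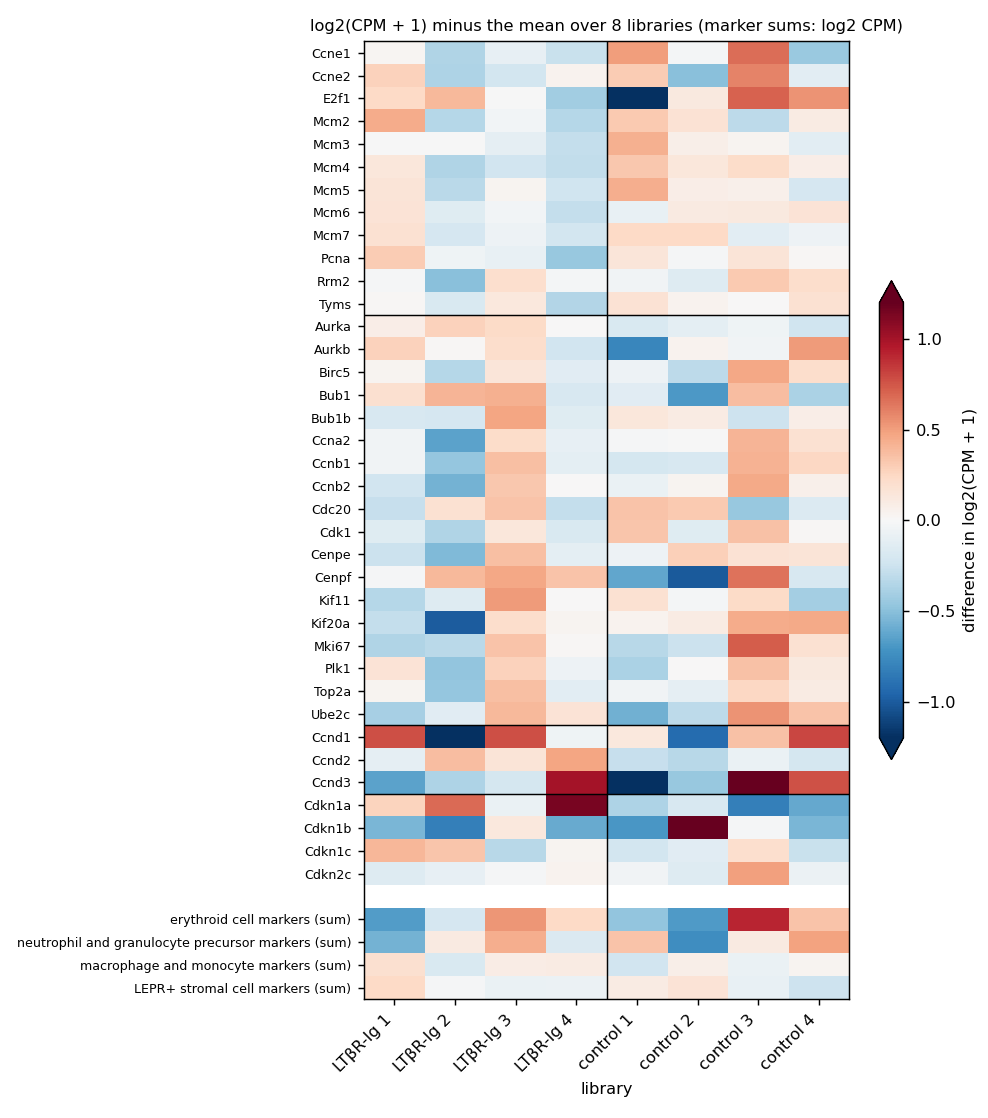
The 37 members (rows, by class) in each library (columns, LTβR-Ig left of the line, control right of it) as log2(CPM + 1) minus the mean over 8 libraries, with sums of 4 marker lists as log2 CPM below; colours saturate past the ends of the scale. Most mitotic rows are red in LTβR-Ig replicate 3 and control replicate 3, the library with the highest erythroid sum of each group, 37329 CPM in LTβR-Ig and 48688 CPM in control. LTβR-Ig replicate 3 also had the highest neutrophil sum of its group and, not drawn, the highest endothelial and megakaryocyte sums. In the control group these sums were highest in replicate 4. The macrophage and monocyte sum averages 5440 CPM in LTβR-Ig and 5076 CPM in control libraries. It includes Vcam1, also a stromal marker, which averages 4664 CPM in LTβR-Ig and 4385 CPM in control libraries.

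The D-type cyclins, which join growth signals to the cycle, differed from each other. Ccnd2 (cyclin D2, ENSMUSG00000000184.12, chr6:127125162-127152193, minus strand, GRCm38) was the most abundant of the 3, at 15.1 CPM per kilobase in LTβR-Ig and 10.9 in control libraries, while Ccnd3 stood at 3.92 in LTβR-Ig and 4.75 in control libraries. Ccnd2 had 111, 155, 134 and 167 CPM in LTβR-Ig libraries, against 98.8, 95.04, 114 and 103 CPM in control libraries. LTβR-Ig replicates 2, 3 and 4 lay above all control libraries, and replicate 1 lay just under control replicate 3. The means were 142 ± 24.7 CPM in LTβR-Ig and 102.7 ± 8.004 CPM in control libraries (SD, n = 4 each), and the log2 fold change was 0.47 ± 0.14 (SE, 95% interval 0.15 to 0.79), with an edgeR p of 0.00887 and an adjusted p of 0.478. Ccnd3 had 20.1, 24.5, 27.6 and 65.3 CPM in LTβR-Ig and 12.5, 23.1, 75.9 and 55.1 CPM in control libraries, with high and low libraries in both groups (−0.28, −1.59 to 1.04). Ccnd1 had 5.20, 0, 5.20 and 2.51 CPM in LTβR-Ig and 2.96, 0.916, 3.64 and 5.31 CPM in control libraries, too low for its interval, −2.76 to 2.78, to show a change of moderate size. Exons of Ccnd1 overlap those of LTO1 on the other strand over 1100 of 4709 bp. With single libraries left out in turn, the median of the 3 cyclins ran from −0.30 to 0.47.

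Among the CDK inhibitors, Cdkn1a showed the largest log2 fold change of all 37 members in the positive direction. Cdkn1a (ENSMUSG00000023067.13, chr17:29090976-29100727, plus strand, GRCm38) encodes p21, an inhibitor of cyclin E- and cyclin A-bound CDK2 and a target of p53. It had 52.4, 69.9, 41.1 and 96.7 CPM in LTβR-Ig libraries, against 33.4, 37.8, 24.1 and 28.0 CPM in control libraries. Every LTβR-Ig library lay above every control library, with 41.1 and 37.8 CPM the nearest pair. Means were 65.02 ± 24.2 CPM in LTβR-Ig and 30.8 ± 5.99 CPM in control libraries (SD, n = 4 each), a ratio of 2.11. The log2 fold change was 1.08 (SE 0.27) and its 95% interval ran from 0.46 to 1.70. The edgeR p was 0.00351 and the adjusted p 0.354, so the gene was not called, whereas DESeq2's adjusted p was 0.0175. The unadjusted p was under 0.05 in all 20 alternatives, with log2 fold changes between 0.79 and 1.40.

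The other inhibitors did not share this pattern. Cdkn1c (p57), a maternally expressed imprinted gene, had 69.5, 66.2, 41.4 and 53.6 CPM in LTβR-Ig libraries, against 45.01, 47.6, 60.6 and 43.6 CPM in control libraries. LTβR-Ig replicates 1 and 2 lay above all control libraries and replicate 3 below them (log2 fold change 0.23, −0.21 to 0.66). Exons of Cdkn1c share 625 of 2039 bp with the antisense gene Gm44732. Cdkn2c (p18), an INK4 inhibitor of CDK4 and CDK6, had 35.5, 37.0, 39.2 and 40.7 CPM in LTβR-Ig and 38.3, 35.3, 56.2 and 37.7 CPM in control libraries, alike but for control replicate 3 (−0.14, −0.53 to 0.26). Cdkn1b (p27) had 2.48, 1.89, 4.55 and 2.33 CPM in LTβR-Ig and 2.12, 43.1, 4.03 and 2.47 CPM in control libraries. A single library, control replicate 2, set its log2 fold change of −2.20 (−4.46 to 0.06), which was −0.03 without it. Its level there was 9.48 times that of the second highest library, and of 10749 genes that reached at least 10 CPM only 14 (0.130%) had a highest library at least 8 times the second. Per kilobase, Cdkn1c was the most abundant inhibitor in both groups, at 28.3 CPM in LTβR-Ig and 24.1 in control libraries. Cdkn1a stood at 18.3 CPM per kilobase in LTβR-Ig and 8.68 in control libraries, and Cdkn2c at 14.2 in LTβR-Ig and 15.6 in control libraries.

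**Figure D4:**
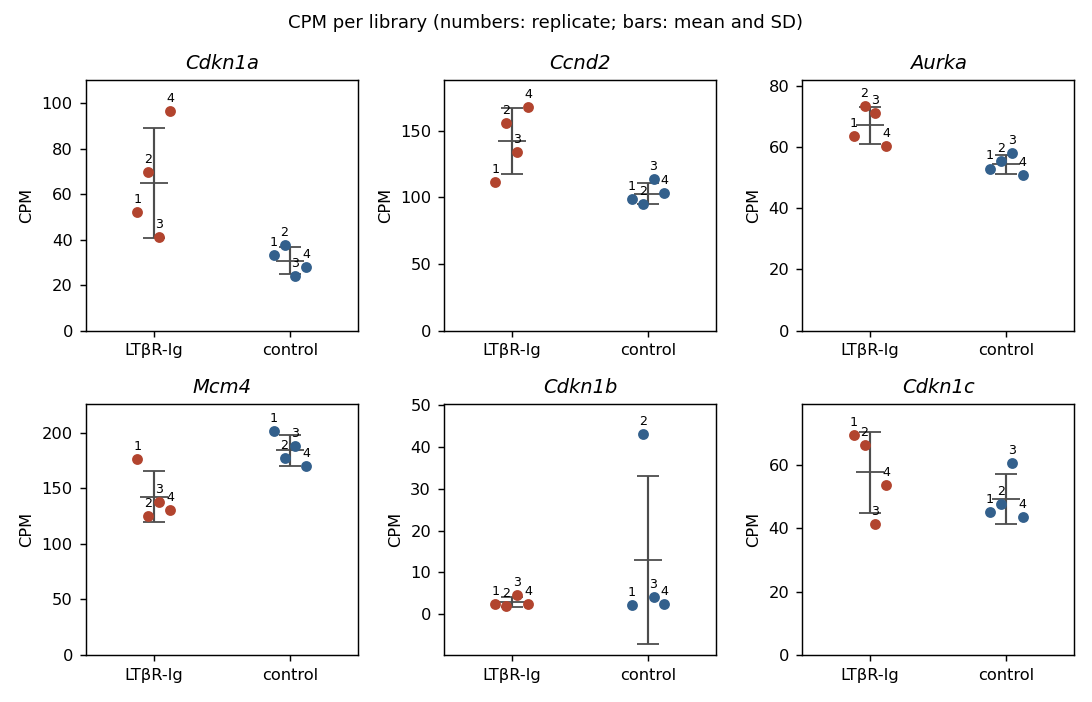
CPM in each library of 6 members, with replicate numbers beside the points, a bar for the mean and whiskers for the SD (n = 4 each; LTβR-Ig left, control right). Cdkn1a and Aurka do not overlap between groups, and Cdkn1b has 1 control library at 43.1 CPM with the other 7 between 1.89 and 4.55.

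Among other genes of the same pathways, listed separately, none passed the adjusted test. Of 37 further replication genes 34 had lower means in LTβR-Ig libraries, the median log2 fold change was −0.15, and 3 had an unadjusted p under 0.05 (8.11%, against 6.32% of all genes). Orc1, a subunit of the complex that marks replication origins, had 11.3, 12.6, 9.49 and 9.28 CPM in LTβR-Ig libraries, against 16.1, 15.01, 31.8 and 13.9 CPM in control libraries, all LTβR-Ig values below all control values. Its log2 fold change was −0.85 ± 0.30 (SE, edgeR adjusted p 0.649). Another origin subunit, Orc3, averaged 53.6 ± 9.55 CPM in LTβR-Ig and 73.2 ± 10.4 CPM in control libraries, and Lig1, which seals nicks in newly made DNA, 74.1 ± 9.87 CPM in LTβR-Ig and 95.3 ± 14.6 CPM in control libraries (SD, n = 4 each). Of 38 further mitotic genes 27 had lower means, and the median was −0.14. Of all 16045 genes 8065 had a negative log2 fold change. Only 1 of the 38 had an unadjusted p under 0.05 (2.63%, below the 6.32% of all genes). It was the kinetochore gene Nuf2, with 28.8 ± 5.44 CPM in LTβR-Ig and 39.7 ± 6.54 CPM in control libraries. The sign of the replication genes was shared with the 12 S phase members, which belong to the same programme, and their smallest adjusted p was 0.649.

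The partners of the D-type cyclins were present at levels that did not differ beyond their spread. Cdk4 averaged 240 ± 74.7 CPM in LTβR-Ig and 238 ± 43.8 CPM in control libraries, and Cdk6 averaged 66.6 ± 14.0 CPM in LTβR-Ig and 71.4 ± 10.9 CPM in control libraries (SD, n = 4 each, here and for the next genes). Rb1, the retinoblastoma gene, averaged 70.2 ± 18.0 CPM in LTβR-Ig and 61.8 ± 12.1 CPM in control libraries (log2 fold change 0.18, −0.32 to 0.68). Its relative Rbl2 (p130), a DREAM subunit of resting cells, averaged 51.2 ± 3.91 CPM in LTβR-Ig and 64.7 ± 13.2 CPM in control libraries (−0.34, −0.72 to 0.04). Foxm1 had 15.4, 0.736, 17.2 and 1.77 CPM in LTβR-Ig and 17.7, 10.99, 1.39 and 14.5 CPM in control libraries, low in some libraries of both groups. Of the 17 genes of the retinoblastoma, E2F and DREAM list, and of the 13 kinases and regulators of CDKs, 0 had an unadjusted p under 0.05. The 4 further CDK inhibitor genes include Cdkn2a and Cdkn2b, which were at 0 in some or all libraries, and none of the 3 that were tested had an unadjusted p under 0.05.

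Genes tied to p53 and to rest were mixed. Of 19 p53 pathway genes 11 had positive and 8 negative log2 fold changes, with a median of 0.05 and 2 at an unadjusted p under 0.05 in opposite directions, against 6.32% of all genes at that p. Bax, which promotes cell death at mitochondria, had 80.5, 51.3, 53.5 and 60.02 CPM in LTβR-Ig libraries, against 38.1, 41.8, 44.2 and 48.0 CPM in control libraries, without overlap (log2 fold change 0.51, edgeR adjusted p 0.587). Trp53, the gene of p53 itself, had 153, 138, 128 and 154 CPM in LTβR-Ig and 183, 201, 155 and 163 CPM in control libraries, also without overlap and in the other direction (−0.29, adjusted p 0.708 by the same test). Mdm2, a p53 target that degrades p53, averaged 30.0 ± 14.2 CPM in LTβR-Ig and 30.5 ± 10.9 CPM in control libraries. Of 14 genes linked to quiescence 6 had positive and 8 negative log2 fold changes, and 2 had an unadjusted p under 0.05 (14.3%, against 6.32% of all genes). Klf2, a factor known from resting lymphocytes and endothelium, had 16.01, 23.6, 21.3 and 24.6 CPM in LTβR-Ig libraries, against 12.01, 6.64, 14.9 and 8.82 CPM in control libraries, without overlap (log2 fold change 1.01, edgeR adjusted p 0.454). All 10 endothelial markers also had positive log2 fold changes (median 0.68), with 0 of 10 at an unadjusted p under 0.05, 8 of 10 detected in all 8 libraries and Tek and Tie1 at 0 in some. Their sum was 27.8, 68.0, 304 and 123 CPM in LTβR-Ig replicates 1 to 4, against 64.1, 48.6, 76.0 and 144 CPM in control replicates 1 to 4. LTβR-Ig libraries thus held both the lowest and the highest sum. All 10 megakaryocyte and platelet markers had positive log2 fold changes as well (median 0.61, 0 of 10 at an unadjusted p under 0.05), with sums of 921 to 3696 CPM in LTβR-Ig and 618 to 2646 CPM in control libraries. Of all 16045 genes 7980 had a positive log2 fold change. The part of these cells in the Klf2 values was not tested. The antiproliferative gene Tob1 averaged 39.2 ± 4.75 CPM in LTβR-Ig and 28.4 ± 4.35 CPM in control libraries, again without overlap (0.46, adjusted p 0.649).

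Across libraries, several mitotic genes varied with the erythroid markers. The 37 members were correlated with 3 marker sums. Over 8 libraries the log2 CPM of 17 of 18 mitotic members correlated positively with the log2 erythroid sum, against 4 of 12 S phase members and 7807 of all 16045 genes. Members of a class are known to be switched on together, so the shared sign of the mitotic members is not 18 separate observations. With the neutrophil sum 15 of 18 mitotic and 4 of 12 S phase members correlated positively, against 7725 of all genes, and with the stromal sum 2 of 18 mitotic and 9 of 12 S phase members did, against 8313 of all genes. At an exact two-sided permutation p under 0.05, 7 of 37 members correlated positively (18.9%), against 5.09% of all 16045 genes, and 0 negatively, against 4.47%. Ube2c had a Pearson's r of 0.956 (exact permutation p 0.00107, adjusted 0.234 over all genes) and a Spearman's rho of 0.905 (exact permutation p 0.00456). Mki67 had an r of 0.945 (exact permutation p 0.000645, adjusted 0.211) and a rho of 0.857 (exact permutation p 0.0107). Without the 2 libraries farthest from the median erythroid sum, control replicates 2 and 3, r was 0.960 for Ube2c and 0.949 for Mki67. Ccnb1, Cenpf, Birc5, Ccnd3 and Cdkn2c were the other 5, with r between 0.734 and 0.795 (exact permutation p 0.00370 to 0.0397) and rho between 0.690 and 0.833 (exact permutation p 0.0154 to 0.0694). Without those libraries r was 0.390 for Birc5 and 0.497 for Cenpf. For the neutrophil list 0 members passed that p, against 2.89% of all genes with a positive and 2.13% with a negative correlation. For the stromal list 1 member passed it positively, against 3.71% of all genes, and 1 negatively, against 4.01%. Mcm7 had an r of 0.726 (exact permutation p 0.0448) and a rho of 0.548 (exact permutation p 0.171), and r was 0.872 without LTβR-Ig replicate 1 and control replicate 4, the farthest from the median. Ube2c had an r of −0.831 (exact permutation p 0.0118) and a rho of −0.857 (exact permutation p 0.0107), and r was −0.883 without the same libraries. No correlation of a member passed adjustment over all genes, and the part that erythroid RNA had in the members' levels was not tested.

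**Figure D5:**
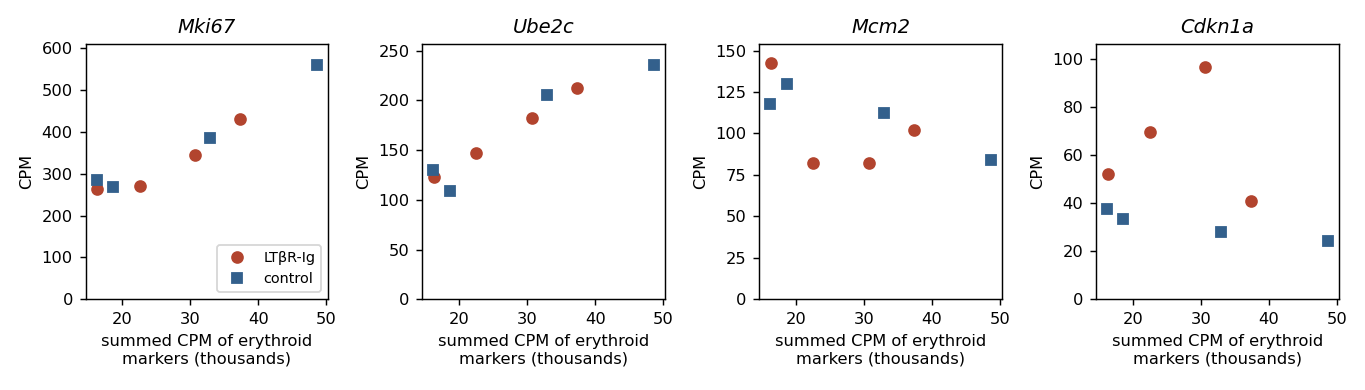
CPM of 4 members against the summed CPM of the erythroid markers in each library; red circles are LTβR-Ig and blue squares control libraries. Mki67 and Ube2c climb with the erythroid sum in both groups (r 0.945 for Mki67 and 0.956 for Ube2c on log2 values), while Mcm2 does not, and the lowest Cdkn1a value of LTβR-Ig libraries, 41.1, lies above the highest of control libraries, 37.8.

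The library numbers also divided the samples. Replicates 3 and 4 had erythroid sums of 30678 CPM or more in LTβR-Ig and 32928 CPM or more in control libraries, and replicates 1 and 2 had at most 22555 CPM in LTβR-Ig and 18614 CPM in control libraries. Plasma cell markers ran the other way, with 1833 and 2657 CPM in LTβR-Ig replicates 1 and 2 against 956 and 665 CPM in replicates 3 and 4, and 2161 and 3855 CPM in control replicates 1 and 2 against 397 and 580 CPM in replicates 3 and 4. No label explains this division, and 4 libraries on each side are too few for a correlation within it. Mki67 and Ube2c were also higher in replicates 3 and 4 than in replicates 1 and 2 in both groups. The permutations ran over all 8 libraries without regard to the division. Their p-values therefore cannot tell a relation with the erythroid sum from the division itself. Within numbers 1 and 2 the log2 fold change was 0.79 for Cdkn1a, 0.47 for Ccnd2, 0.35 for Aurka and −0.32 for Mcm4. Within numbers 3 and 4 it was 1.40 for Cdkn1a, 0.47 for Ccnd2, 0.27 for Aurka and −0.42 for Mcm4. With the erythroid level as a covariate the values were 1.09, 0.48, 0.31 and −0.38, and the medians of the S phase and mitotic classes were −0.15 and −0.04. These 4 members were chosen for their p on the same libraries, so these values are a description.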

How the data were processed

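PolyA RNA of sorted LEPR+ marrow cells was read as pairs of 76 bp, per the labels' protocols. HISAT2, HTSeq and mm10 are named in the submitters' processing notes; of versions, annotation release and strand setting the sources used here say nothing. As the count file shows, the authors deposited raw counts per gene, whole numbers without normalization, for 8 libraries. Groups and replicate numbers came from the sample titles.

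GENCODE M21 (GRCm38, also called mm10) gave gene symbols and positions; 52489 of 52636 gene IDs matched without version, and IDs without a symbol took 0.0207 to 0.148% of counts per library. In a check for duplicated libraries, replicates of a group differed far beyond sampling noise (chi-square per degree of freedom 140 to 265). None was therefore taken as a copy of another, and all were kept. The test was edgeR 4.0.16 in R 4.3.3 (TMM, filterByExpr with a minimum count of 10 and a minimum total count of 15, robust glmQLFit, quasi-likelihood F test, no covariate), with Benjamini-Hochberg adjustment over 16045 genes and a threshold of 0.05. CPM are TMM-scaled, and levels between genes are CPM per kilobase of the union of exons. Intervals cover 95%. The code was tested on simulated data. Alternatives were DESeq2 1.42.0, limma-voom (limma 3.58.1), other scalings and filters, a replicate block, left-out libraries and covariates.

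The members and all gene lists were chosen with earlier results of these data known. Named in the text are all 37 members, with values per library for the CDK inhibitors, the D-type cyclins, the 4 S phase and 4 mitotic members with the smallest p, and 6 common proliferation genes, besides Rrm2 and E2f1, which were added after their values were seen. Of each pathway list up to 3 genes with the smallest p under 0.05 are named, with Cdk4, Cdk6, Rb1, Rbl2, Trp53, Mdm2 and Foxm1. Lepr, Gata1 and the T cell markers among other cell types were also chosen after their values were seen, as were the marker lists used for correlations. Per-member overlaps on the other strand are given where they exceed 10% of exon length.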

Additional observations from a re-analysis of the deposited data

Results flagged for a closer look

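In 6 of 108 combinations of a gene or list sum and a group of 4 libraries, 1 library stood apart from the other 3 by more than Dixon's 95% critical value; chance flags about 1 in 20 such groups. Bub1b, a spindle checkpoint kinase, stood apart in both groups and in opposite directions, at 60.6 CPM in LTβR-Ig replicate 3, with the other LTβR-Ig libraries between 37.7 and 39.0, and at 36.3 CPM in control replicate 3, with the other control libraries between 45.9 and 47.7. Ccnd3 reached 65.3 CPM in LTβR-Ig replicate 4, and the remaining LTβR-Ig values lay between 20.1 and 27.6. Cdkn1b stood at 43.1 CPM in control replicate 2 and between 2.12 and 4.03 in the remaining control libraries. Cdkn2c had 56.2 CPM in control replicate 3, against 35.3 to 38.3 in the others. Schwann cell markers summed to 213.8 CPM in control replicate 4, above the 140.5 to 152.8 CPM of its group.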

How the results depend on the processing

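The count of all genes called moved with the method: 199 with DESeq2, 14 with limma-voom, 22 with the stricter filter (at least 10 counts in 4 libraries and a mean of 5 CPM), 1 with numbers 1 and 2 only, 1 with numbers 3 and 4 only, 1 without LTβR-Ig replicate 2 and control replicate 3 together, and 2 (without control replicate 3) to 9 with single libraries left out, against 6. The count of members called was 1 with DESeq2 and 0 otherwise. The count of members with an unadjusted p under 0.05, 4 on all libraries, was 2 with numbers 3 and 4 only, and ran from 2 without LTβR-Ig replicate 2 (Ccnd2 and Cdkn1a) to 7 without control replicate 3 (also Bub1, Cenpf and Cdkn1b). The share of all genes at that p is given only for the main fit (6.32%). Whether members exceeded that share in the other fits therefore cannot be said. The median log2 fold change of CDK inhibitors, 0.05, was 0.23 with DESeq2 (over 3 genes, since it gave no p for Cdkn1b), 0.27 with numbers 1 and 2 only, and −0.00306 to 0.20 with single libraries left out. The causes were not tested. Of 37 members 16 had the same sign in all 20 alternatives and 21 changed sign in at least 1. The alternatives added after the data had been seen were the joint omission of 2 libraries, the erythroid covariate, and the 3 on library numbers.

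With the replicate number as a block 1 gene was called, and 6 members had an unadjusted p under 0.05 (Mcm4, Cdk1, Aurka, Kif20a, Ccnd2 and Cdkn1a). The share of all genes at that p was not counted with the block, so these 6 members have no background beside them. The deviations of same-numbered libraries from their group means had correlations of 0.106, 0.0560, 0.0841 and −0.000816 over genes, too small to show that the numbers pair the samples. The labels do not say what a number marks. Of the 4 LTβR-Ig libraries 1 correlated best with its own number.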
